A study of Homo sapiens with 6 samples.

Results

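The collagens that lie outside basement membranes, with the lysyl oxidases that cross-link them, were followed in human embryonic stem cells on 2 laminin coatings. Members were taken by symbol: every gene named COL, a number and A, from type I to type XXVIII, apart from the basement membrane chains of types IV, XV and XVIII, plus LOX and LOXL1 to LOXL4. Of 60499 genes in the deposited table, 47 matched, of which 41 were protein-coding (36 chains and 5 oxidases) and 6 were pseudogenes, antisense or divergent transcripts that share the symbol. A minimum of 10 counts in at least 3 libraries kept 37 of the 47, namely 36 coding genes and the pseudogene COL6A4P2. The 5 coding genes under the minimum were COL3A1 (0 to 1 counts per library), COL10A1 (0 to 2), COL19A1 (0 to 4), COL6A5 (1 to 7) and COL8A1 (4 to 12).

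The cells were H1, an established human embryonic stem cell line, kept for 4 days in NutriStem, a defined stem cell medium. Wells were coated with laminin-521 alone (LN-521) or with laminin-521 together with laminin-221 (LN-521+LN-221), 3 wells per coating, and no other factor differed in the labels. Wells described as having LN-221 always had laminin-521 as well. Total RNA (700 ng) went into stranded TruSeq libraries read in pairs of 150 bases, and the totals of assigned counts ran from 20606494 to 26836727. The wells are labelled as biological replicates, but nothing says that they came from separate cultures, so p-values measure the spread between these wells.

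Collagens are trimers whose chains wind around each other along stretches where glycine recurs at a fixed period (Gly-X-Y). Fibrillar collagens build the banded fibrils of connective tissue, FACIT collagens coat those fibrils, other types form beaded filaments, networks or anchoring fibrils, and a few stay in the plasma membrane. Lysyl oxidases are secreted copper enzymes that oxidise lysines of collagen and elastin so that neighbouring molecules can be covalently joined. Embryonic stem cells are an epithelial cell type that lays down a laminin-rich matrix, and interstitial collagens are better known from fibroblasts, bone and cartilage.

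The repeat can be read in the coding sequences of the 3 chains that passed the test below. Each line gives the first 10 triplets of the longest uninterrupted Gly-X-Y run, with the glycine codon (GGN) that opens each triplet in capitals. A glycine codon at another place in a triplet is left in lower case. The sequences come from GENCODE 29 on GRCh38, and codons are numbered from the start codon of the longest coding transcript.
COL13A1, codons 579 to 608: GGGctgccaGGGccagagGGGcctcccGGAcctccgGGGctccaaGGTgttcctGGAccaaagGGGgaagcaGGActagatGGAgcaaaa
COL5A2, codons 213 to 242: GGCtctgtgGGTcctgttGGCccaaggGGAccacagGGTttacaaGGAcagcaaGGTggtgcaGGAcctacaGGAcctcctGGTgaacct
COL11A1, codons 541 to 570: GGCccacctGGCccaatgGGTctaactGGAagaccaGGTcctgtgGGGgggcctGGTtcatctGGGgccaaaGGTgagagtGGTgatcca
All 3 begin with the same period, and they differ in how far it goes on unbroken. The run lasts 339 triplets in COL5A2 and 338 in COL11A1, which are fibrillar chains, but 44 in COL13A1, a membrane chain whose repeats are split by interruptions. Runs of at least 3 triplets cover 72.25% of the codons of COL5A2, 59.74% of those of COL11A1 and 73.35% of those of COL13A1. Across the classes, the longest run spanned 216 to 343 triplets in the 11 fibrillar chains, 32 to 113 in the 10 FACIT chains, 23 to 87 in the 11 filament, network and anchoring chains and 43 to 56 in the 4 membrane chains. The shortest fibrillar runs belonged to COL24A1 (216) and COL27A1 (217). The 5 lysyl oxidases, which are enzymes and not collagens, had runs of 2 to 3.

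A small group of chains made up most of the message of the collagens followed here. Levels are given in TPM, a unit scaled to gene length that lets genes be compared, as mean ± SD over the 6 libraries. COL6A1, the α1 chain of the beaded filament collagen VI, stood highest at 62.9 ± 2.16. COL1A2 (44.7 ± 5.51), COL6A2 (40.1 ± 2.69) and COL1A1 (40.0 ± 2.67) followed. On LN-521 alone the wells of these 3 overlapped, while with LN-221 COL1A2 (47.9 ± 4.51) lay above COL6A2 (38.5 ± 0.390) in every well. Together the 4 held 63.0% of the summed TPM of the 36 chains followed, which leave out the basement membrane collagens. COL9A3, a chain of the FACIT collagen IX, came next at 21.3 ± 1.65, and LOXL2, the most abundant of the oxidases, at 15.2 ± 1.14. COL26A1 (9.88 ± 1.31), COL11A1 (9.63 ± 2.27), COL14A1 (8.04 ± 0.861) and COL9A1 (7.88 ± 1.35) completed the 10 highest and overlapped each other.

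Fibrillar chains other than type I were far lower. COL5A2 and COL5A1, the 2 chains of the usual collagen V trimer, averaged 6.14 and 3.97 TPM. COL27A1, a fibrillar chain of developing cartilage, averaged 4.93. COL11A2 (1.61), COL2A1 (1.55), COL5A3 (0.720) and COL24A1 (0.552) lay below 2 TPM. COL2A1 is the main chain of cartilage fibrils. COL3A1, the partner of type I in skin and vessels, was listed at 0 to 1 counts, so type I chains were measured without type III. COL3A1 and COL5A2 are neighbours on chromosome 2, lying end to end 19149 bases apart on opposite strands, and of this pair COL5A2 alone passed the minimum.

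Among the FACIT chains, COL16A1 averaged 4.84 TPM, COL9A2 3.40, COL21A1 2.67, COL22A1 1.98, COL20A1 0.433 and COL12A1 0.403. In the filament, network and anchoring class, COL7A1, which forms the anchoring fibrils under epithelia, averaged 5.55, COL8A2 0.990, COL6A3 0.983, COL28A1 0.372 and COL6A6 0.0733. COL6A3 encodes the large α3 chain that joins α1 and α2 in the common collagen VI trimer, and it stood far below both of them. The membrane chains averaged 6.52 TPM for COL13A1, 3.18 for COL23A1, 1.75 for COL25A1 and 0.600 for COL17A1, the last a hemidesmosome component. The other oxidases averaged 7.50 TPM for LOXL1, 7.48 for LOXL3, 0.857 for LOX and 0.167 for LOXL4. The pseudogene COL6A4P2 averaged 0.517 TPM on 4 to 15 counts per library, and reads of a pseudogene can be shared with its relatives.

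**Figure D1:**
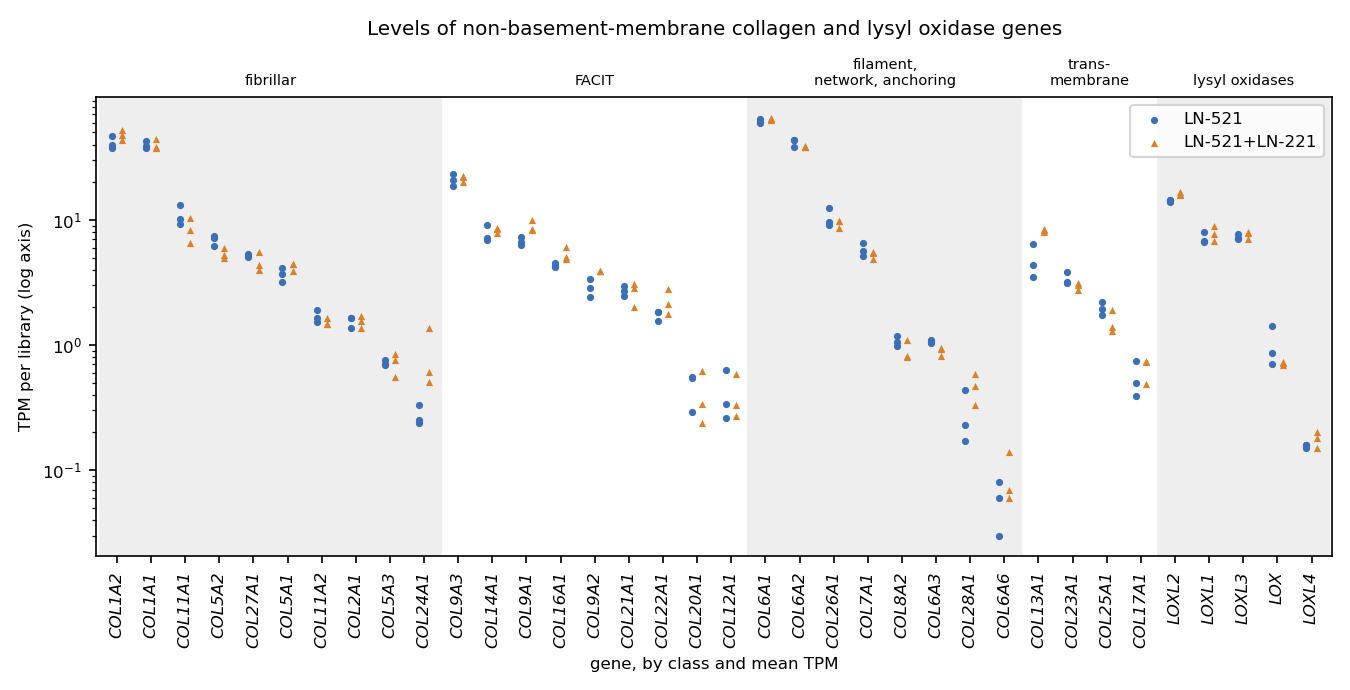
TPM of the 36 coding genes past the count minimum in each library (log axis), ordered by class and mean, with circles for LN-521 and triangles for LN-521+LN-221. COL6A1, COL1A2, COL6A2 and COL1A1 stand at the top of the collagen levels in both coatings, and LOXL4 and COL6A6 at the bottom.

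By class, the fibrillar chains held 34.6% of the summed TPM of all members (range over libraries 32.5 to 36.6%). Filament, network and anchoring chains held 36.8% (34.7 to 40.1%), FACIT chains 15.5% (14.5 to 16.3%), lysyl oxidases 9.50% (8.97 to 10.7%) and membrane chains 3.66% (2.98 to 4.18%). The order of the filament and fibrillar classes was therefore close, and their ranges overlapped.

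Between the coatings, 1 membrane chain was higher and 2 fibrillar chains were lower on LN-521+LN-221, and most members overlapped between the coatings. By edgeR's quasi-likelihood test with Benjamini-Hochberg adjustment over 17608 genes, 3 of 37 members (8.11%) had an adjusted p under 0.05, beside 2.53% of all genes. COL13A1 was higher (1 of 37, background 1.40%), and COL5A2 and COL11A1 were lower (2 of 37, background 1.14%). At an unadjusted p under 0.05 there were 10 members (27.0%) beside 14.5% of all genes, with 3 higher (background 7.05%) and 7 lower (7.49%). The same number, 10 (27.0%), had normalised counts that did not overlap between the coatings, beside 19.9% of all genes, again 3 higher (background 10.2%) and 7 lower (9.68%). The median log2 fold change of the members was -0.03 (range -0.43 in the pseudogene COL6A4P2 to 0.78 in COL13A1) beside -0.0011 for all genes tested, and their median absolute change was 0.14 beside 0.11. DESeq2 called 4 of 34 members, the same 3 and COL1A1, where its background was 3.16%. limma on log2(TPM + 1) called 0 of 27 members, and 33 genes in all.

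COL13A1 (ENSG00000197467, chr10:69801867-69964275), a single-pass membrane collagen of cell adhesion sites and of the neuromuscular junction, had the largest change of the 37. Its CPM (counts scaled to library totals corrected by TMM factors) was 13.6, 13.0 and 9.71 on LN-521 alone, and 20.4, 20.5 and 21.6 with LN-221. Every well with LN-221 lay above every well without it, and replicate 3 of LN-521 was the lowest. The means were 12.1 ± 2.10 and 20.8 ± 0.691 (SD, n = 3 wells each), a 1.72-fold difference, with a log2 fold change of 0.78 ± 0.11 (SE) and an edgeR adjusted p of 4.42e-04. Behind these values stood 242 to 345 reads in each well of LN-521 and 423 to 512 in each well with LN-221. Deposited TPM moved the same way, from 6.45, 4.40 and 3.50 to 8.04, 8.31 and 8.42. The gene passed in all 6 fits that left out a well (0.65 to 0.87), but not in limma on log2(TPM + 1), where the change was 0.71 with an adjusted p of 0.274.

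COL5A2 (ENSG00000204262, chr2:189031896-189225312) encodes the α2 chain of collagen V, a minor component of type I fibrils that limits their diameter. It had 56.3, 57.0 and 60.3 CPM on LN-521 alone, and 47.4, 43.7 and 43.0 with LN-221. No well of one coating reached the range of the other. The means were 57.9 ± 2.13 and 44.7 ± 2.39 (SD, n = 3 each), with a log2 fold change of -0.37 ± 0.07 (SE) and an edgeR adjusted p of 0.00362. Deposited TPM was also apart, at 7.23, 6.14 and 7.41 on LN-521 alone, and 5.92, 5.21 and 4.93 with LN-221. The call was lost without replicate 2 of LN-521+LN-221 (-0.35, adjusted p 0.0525) and in limma on log2(TPM + 1) (-0.32, adjusted p 0.450).

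COL11A1 (ENSG00000060718, chr1:102876467-103108872), the α1 chain of collagen XI, which sits inside the type II fibrils of cartilage, changed by a like amount. CPM was 80.3, 71.6 and 68.2 on LN-521 alone, and 60.9, 58.7 and 50.4 with LN-221. The coatings did not overlap, and the lowest well was replicate 3 of LN-521+LN-221. Means of 73.4 ± 6.26 and 56.7 ± 5.52 (SD, n = 3 each) gave a log2 fold change of -0.37 ± 0.08 (SE) and an edgeR adjusted p of 0.0128. That call was lost without replicate 2 of LN-521+LN-221 (-0.40, adjusted p 0.0629), without its replicate 3 (-0.30, adjusted p 0.119) and in limma on log2(TPM + 1) (-0.35, adjusted p 0.696). In TPM the coatings overlapped, at 13.2, 9.29 and 10.2 on LN-521 alone, and 10.3, 8.28 and 6.48 with LN-221.

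**Figure D2:**
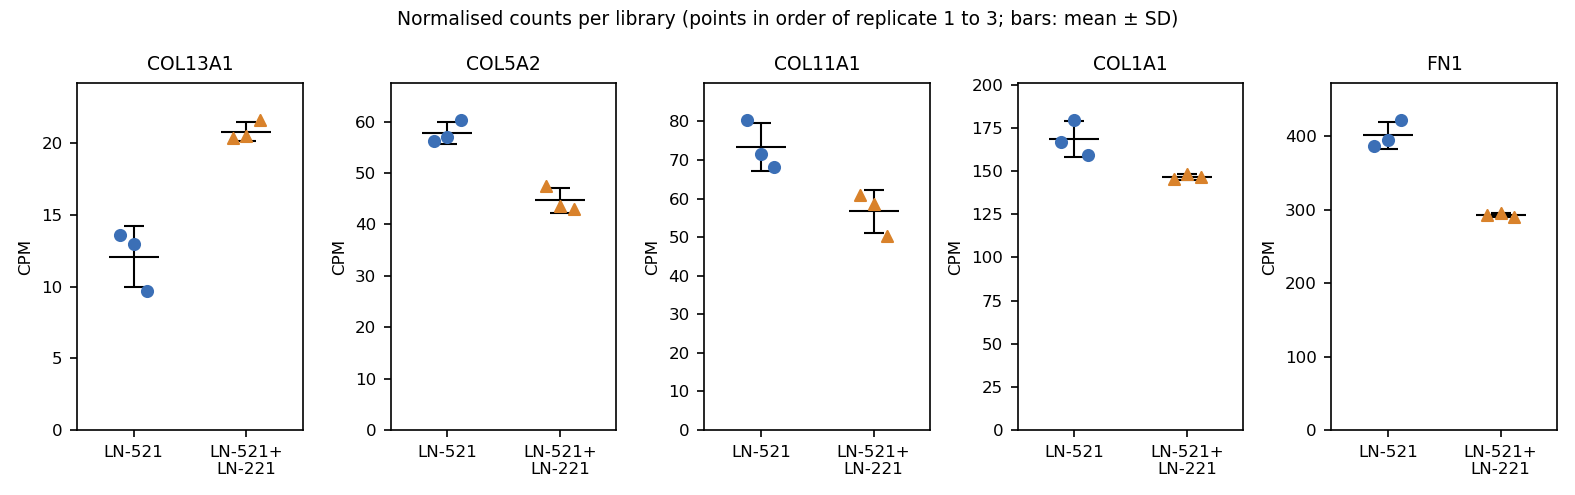
CPM per well (points, replicates 1 to 3 from left to right) with mean ± SD for COL13A1, COL5A2, COL11A1, COL1A1 and the collagen partner FN1. The axes start at 0, and the wells of the coatings are apart in every panel, with the widest relative gap in COL13A1.

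The type I chains, which join as α1 and α2 in the common trimer, had fitted changes of opposite sign that did not pass the test. COL1A1 (ENSG00000108821, chr17:50183289-50201632) had 167, 179.6 and 159 CPM on LN-521 alone, and 145, 148 and 146 with LN-221, with no overlap. The means were 169 ± 10.3 and 147 ± 1.45, with a log2 fold change of -0.20 ± 0.06 and an edgeR adjusted p of 0.0724. DESeq2 put it past the threshold (-0.20, adjusted p 0.0262), as did the edgeR fit without replicate 1 of LN-521 (-0.21, adjusted p 0.0201) but none of the other 5 such fits (-0.24 to -0.15). On the TPM scale this difference was not seen: COL1A1 stood at 42.5, 37.8 and 39.2 on LN-521 alone, and at 44.1, 38.5 and 37.9 with LN-221, and limma on log2(TPM + 1) gave 0.01. COL1A2 (ENSG00000164692, chr7:94394561-94431232) had 196, 220.1 and 174 CPM on LN-521 alone, and 213, 209 and 220.4 with LN-221, which overlap. Its log2 fold change was 0.12 ± 0.07 with an edgeR adjusted p of 0.449. Without replicate 2 of LN-521, its highest well there, COL1A2 passed at 0.22 with an adjusted p of 0.0307, while without replicate 3 it was 0.04 (adjusted p 0.874), and it passed in none of the other 4 such fits.

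Of 10 fibrillar chains tested, 2 were lower and 0 higher by the adjusted test (1.14% and 1.40% of all genes). At an unadjusted p under 0.05, 1 was higher and 4 were lower (5 of 10, beside 14.5% of all genes), and the median log2 fold change was -0.14 (-0.0011 over all genes). COL24A1 had the largest positive value of these chains, next after COL13A1 among all members. It had 1.52, 1.62 and 1.77 CPM on LN-521 alone, and 3.13, 2.51 and 2.41 with LN-221, on only 35 to 65 counts per library. The wells did not overlap, yet the edgeR adjusted p was 0.0817 (log2 fold change 0.71 ± 0.20). COL2A1 had 7.88, 9.59 and 8.67 CPM on LN-521 alone, and 6.89, 6.95 and 7.18 with LN-221, without overlap (-0.32 ± 0.12, adjusted p 0.203). In TPM COL2A1 averaged 1.55 on both coatings and its wells overlapped. The other fibrillar chains had log2 fold changes of 0.13 (COL5A1), -0.10 (COL5A3), -0.13 (COL27A1) and -0.15 (COL11A2).

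No FACIT chain of 9 tested passed in edgeR or DESeq2 (0 by each), 1 was higher at an unadjusted p under 0.05 (11.1%, beside 7.05% of all genes), and the median log2 fold change was 0.11. That chain was COL9A2, with 7.58, 8.80 and 7.71 CPM on LN-521 alone, and 9.20, 9.73 and 10.9 with LN-221 (0.31 ± 0.11, edgeR adjusted p 0.204). Collagen IX joins the products of COL9A1, COL9A2 and COL9A3 in one trimer. COL9A3 had 48.9, 50.6 and 45.6 CPM on LN-521 alone, and 48.3, 49.0 and 49.2 with LN-221 (0.01 ± 0.07, adjusted p 0.952). COL9A1 had 19.1, 24.9 and 19.7 CPM on LN-521 alone, and 25.1, 23.9 and 23.6 with LN-221 (0.19 ± 0.10, adjusted p 0.411), with overlap. Its TPM did not overlap, at 6.70, 7.37 and 6.36 on LN-521 alone, and 10.02, 8.33 and 8.49 with LN-221. In edgeR COL9A1 passed without replicate 2 of LN-521 (0.32, adjusted p 0.0364) and in none of the other 5 such fits, with 0.11 (adjusted p 0.528) without replicate 1. COL14A1, whose product binds fibrils from outside, had 60.4, 50.6 and 55.4 CPM on LN-521 alone, and 59.7, 59.2 and 63.1 with LN-221 (0.13 ± 0.07, adjusted p 0.419). Without replicate 1 of LN-521 it was 0.20 (adjusted p 0.0731), and without replicate 2 it was 0.07 (adjusted p 0.676). Exons of COL9A3 share 45 bases with TCFL5 on the other strand, and whether the counting used strand is not given in the sources used here. The remaining FACIT chains ranged from -0.13 (COL12A1) to 0.11 (COL16A1 and COL22A1), with COL20A1 at 0.00 and COL21A1 at -0.03.

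In the filament, network and anchoring class, 0 of 8 tested passed in edgeR or DESeq2 and 2 were lower at an unadjusted p under 0.05 (25.0%, beside 7.49% of all genes). The median log2 fold change was -0.13. Both of the 2 were collagen VI chains. COL6A3 had 10.2, 11.0 and 9.91 CPM on LN-521 alone, and 8.14, 8.39 and 8.15 with LN-221, without overlap (-0.34 ± 0.10, edgeR adjusted p 0.117). COL6A2 had 145, 179.7 and 148 CPM on LN-521 alone, and 138, 142 and 141 with LN-221 (-0.16 ± 0.07, adjusted p 0.292), without overlap. It passed without replicate 1 of LN-521 (-0.22, adjusted p 0.0497), while without replicate 2 it was -0.06 (adjusted p 0.683), and it passed in none of the other 4 fits that left out a well. The abundant COL6A1, 93.0 kb from COL6A2 on the same strand of chromosome 21, had 262, 325 and 285 CPM on LN-521 alone, and 289.8, 293 and 306 with LN-221, which overlap (0.02 ± 0.07, adjusted p 0.911). COL26A1 overlapped as well, at 29.6, 39.9 and 33.6 CPM on LN-521 alone, and 29.9, 30.2 and 33.6 with LN-221 (-0.14 ± 0.10, adjusted p 0.563), and its value was -0.23 without replicate 1 of LN-521 and -0.01 without replicate 2. COL7A1 (-0.09), COL8A2 (-0.31), COL28A1 (-0.12) and COL6A6 (0.37) did not pass.

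Of the 4 membrane chains, COL13A1 alone passed the test, as given above, and at an unadjusted p under 0.05 there was 1 in each direction (2 of 4, beside 14.5% of all genes). COL25A1, a membrane collagen of neurons, had 7.27, 7.71 and 7.46 CPM on LN-521 alone, and 5.92, 5.83 and 5.24 with LN-221, without overlap but short of the threshold (-0.40 ± 0.12, edgeR adjusted p 0.103). COL23A1 had a log2 fold change of -0.25 and COL17A1 of 0.31, and neither passed.

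None of the 5 lysyl oxidases passed in edgeR (0 adjusted and 0 at an unadjusted p under 0.05) or in DESeq2 (0). LOXL2, the oxidase with the highest level, had 50.9, 58.5 and 59.6 CPM on LN-521 alone, and 58.9, 63.2 and 61.7 with LN-221 (0.12 ± 0.07, edgeR adjusted p 0.469). LOX, the founding member of the family, had 4.62, 2.78 and 3.49 CPM on LN-521 alone, and 3.23, 3.05 and 3.55 with LN-221 (-0.14 ± 0.19, adjusted p 0.802). In CPM the wells of both genes overlapped, and in LOX both the highest and the lowest of the 6 wells were on LN-521 alone. In TPM the wells of LOXL2 were apart, at 13.98, 14.33 and 14.36 on LN-521 alone, and 15.75, 15.97 and 16.82 with LN-221. LOXL1 had 9.19, 10.1 and 8.27 CPM on LN-521 alone, and 9.44, 9.73 and 11.4 with LN-221 (0.15 ± 0.12, adjusted p 0.612). LOXL3 had 18.6, 22.1 and 20.8 CPM on LN-521 alone, and 19.6, 21.4 and 22.0 with LN-221 (0.03 ± 0.09, adjusted p 0.908). LOXL4 stayed under 1 CPM throughout, at 0.653, 0.714 and 0.722 on LN-521 alone, and 0.722, 0.628 and 0.887 with LN-221 (0.10 ± 0.32, adjusted p 0.928). These oxidase counts carry overlaps with other genes in the annotation. LOX shares 138 exon bases with SRFBP1, LOXL1 335 with LOXL1-AS1, and LOXL3 625 with HTRA2 and 216 with DOK1, all on the other strand, while LOXL2 shares 120 with ENTPD4 on the same strand. COL13A1, COL5A2, COL11A1 and the type I chains have no such overlap.

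**Figure D3:**
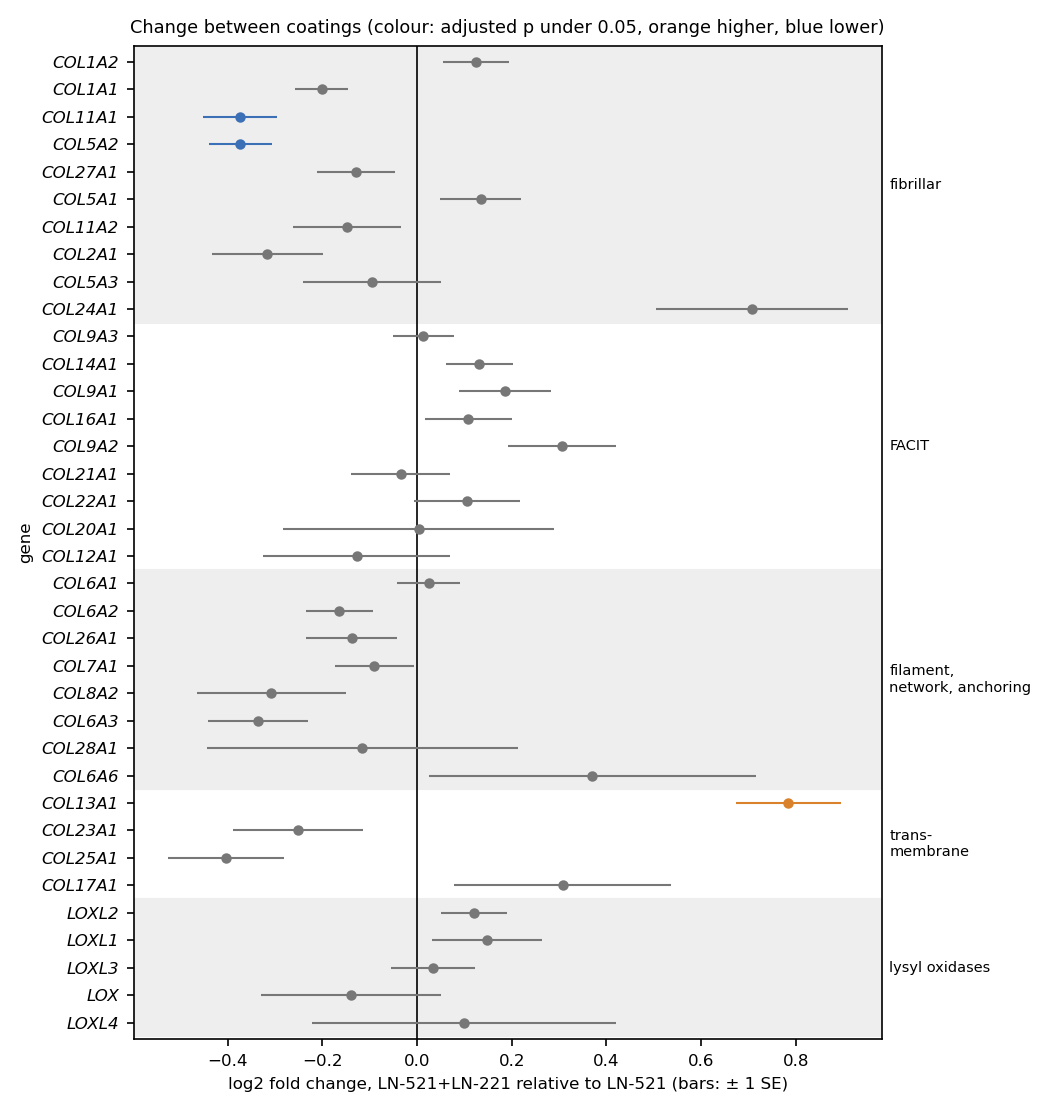
Log2 fold change ± SE of the 36 coding genes past the minimum, the mixed coating over LN-521, by class. COL13A1 (orange) is higher, COL11A1 and COL5A2 (blue) are lower, and the grey genes did not pass an adjusted p of 0.05.

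Summed over a class, levels differed less than those of the called chains. Membrane chains summed to 12.1, 10.9 and 9.11 TPM on LN-521 alone, and 13.3, 13.8 and 13.2 with LN-221, without overlap. Their log2 difference, here the difference between the mean log2 sums of the coatings, was 0.34. COL13A1 carried the shift of the membrane sum, at 4.78 ± 1.51 TPM on LN-521 alone and 8.26 ± 0.196 with LN-221. The other 3 membrane chains together summed to 5.92 ± 0.489 and 5.15 ± 0.359 TPM, lower with LN-221. An exact two-sided permutation test of 3 wells against 3 cannot give a p below 0.1, so class sums are given as values without a test. Lysyl oxidases summed to 29.04 to 30.69 TPM on LN-521 alone, and 31.42 to 34.74 with LN-221 (0.12). FACIT chains summed to 44.46 to 52.67 and 52.05 to 55.72 TPM (log2 difference 0.16). Fibrillar chains (106.48 to 123.57 and 105.73 to 128.14 TPM) and filament, network and anchoring chains (115.24 to 129.62 and 117.75 to 121.62 TPM) overlapped widely. TPM shares its total with abundant RNAs, among them ribosomal RNA, 7SL and the transcripts of the mitochondrial genome. Together these took 36.9 to 44.4% of it in wells of LN-521 and 38.4 to 40.3% in wells with LN-221. With those 1724 genes removed, the log2 difference was 0.08 for lysyl oxidases, whose wells then overlapped, 0.12 for FACIT chains, whose wells were then apart (75.8 to 85.2 and 87.2 to 90.4), and 0.29 for membrane chains.

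Chains that can share a trimer were also set against each other within each library, which removes the total from the comparison. The 8 pairs were chosen after values of the chains had been seen, so the ratios are given as a description without a test. Pairs with COL5A2 or COL11A1 hold a gene already called. COL1A2 to COL1A1 was 1.11, 1.06 and 0.959 on LN-521 alone, and 1.19, 1.24 and 1.15 with LN-221. COL5A2 to COL5A1 was 1.74, 1.66 and 2.32 on LN-521 alone, and 1.34, 1.17 and 1.25 with LN-221, the largest shift of the 8 (log2 difference -0.59). The wells of the coatings were apart in both pairs, upward for type I and downward for type V. COL6A2 to COL6A1 was 0.720, 0.675 and 0.633 on LN-521 alone, and 0.593, 0.601 and 0.606 with LN-221. COL6A3 to COL6A1 was 0.0182, 0.0165 and 0.0173 on LN-521 alone, and 0.0125, 0.0150 and 0.0146 with LN-221. Both ratios to α1(VI) were lower with LN-221 in these wells.

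In collagen IX the ratio to COL9A3 was higher with LN-221 for COL9A2 (0.145, 0.135 and 0.129 on LN-521 alone, and 0.174, 0.179 and 0.197 with LN-221). For COL9A1 it went from 0.288, 0.351 and 0.338 to 0.444, 0.380 and 0.424, but ratios of counts in place of TPM overlapped for COL9A1. COL11A1 to COL11A2 ranged from 4.89 to 8.66 on LN-521 alone, and from 4.41 to 7.06 with LN-221, and COL5A3 to COL5A1 from 0.183 to 0.219 and from 0.126 to 0.193. Those last 2 pairs overlapped. The difference of the type I ratio was 0.33 on the log2 scale in counts and 0.20 in TPM.

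**Figure D4:**
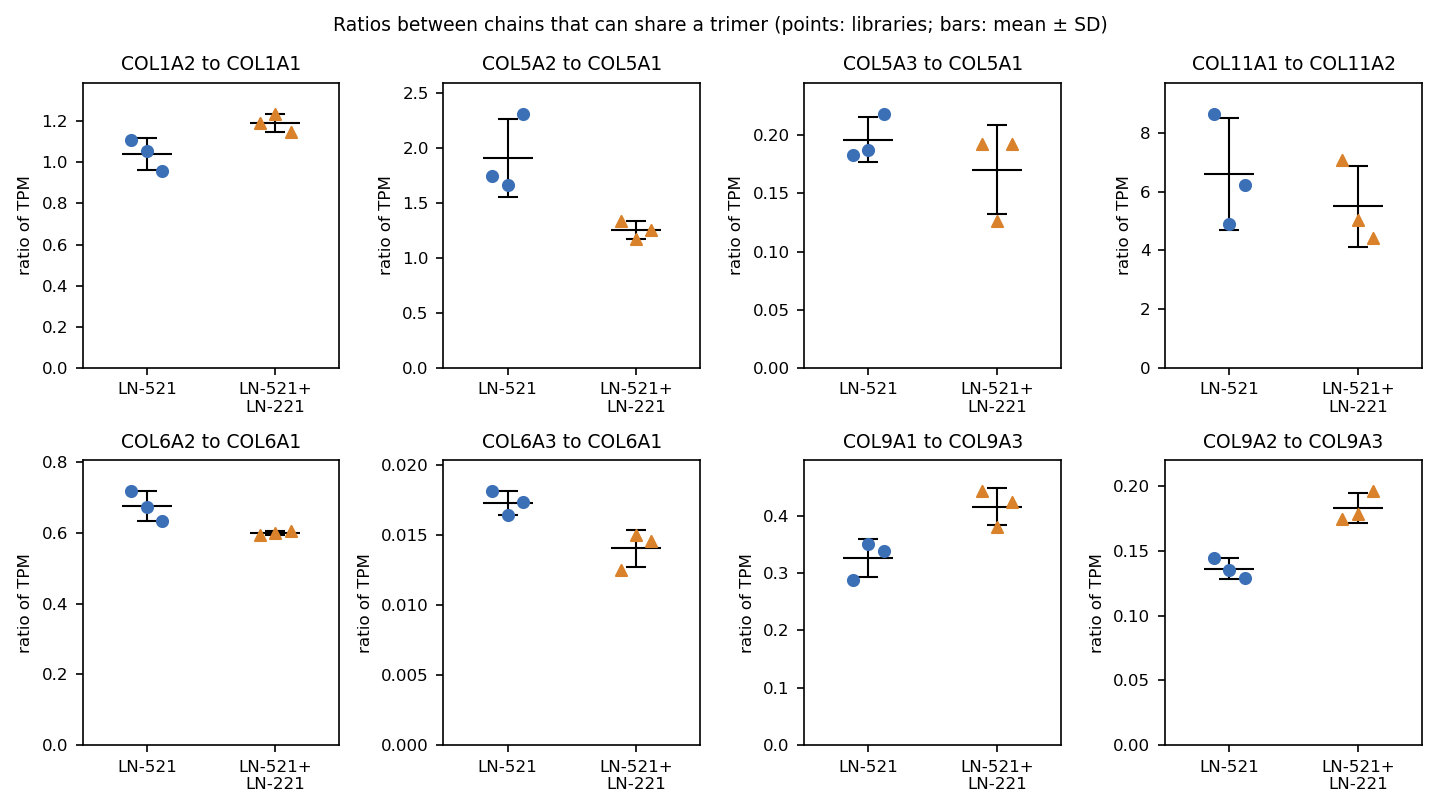
TPM ratio of 8 pairs of chains in each library, with mean ± SD per coating. COL5A2 to COL5A1 has the widest gap between the coatings, and COL5A3 to COL5A1 and COL11A1 to COL11A2 overlap.

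The wells of LN-521 were not alike for these genes. Replicate 2 gave the highest CPM of the 3 wells in 23 of 37 members (62.2%), beside 36.4% of all genes tested, and the others gave 9 and 5. Among LN-521+LN-221 wells, replicate 3 was highest for 17 members (45.9%, beside 35.1% of all genes). The median coefficient of variation of the members was 10.0% on LN-521 and 6.58% on LN-521+LN-221, close to 9.09% and 6.44% over all genes. COL1A2, COL6A1, COL6A2, COL9A1 and COL26A1 were among those highest in replicate 2, and what made that well high was not tested.

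Among the enzymes and partners of collagen, fibronectin alone passed the test. Of 87 genes in 5 lists (folding and modification, cleavage, fibril assembly, receptors and breakdown), 74 were tested, and 1 (1.35%) passed in edgeR, beside the 2.53% of all genes. At an unadjusted p under 0.05 there were 19 (25.7%, beside 14.5% of all genes), 5 higher and 14 lower (7.05% and 7.49% of all genes). The median log2 fold change was -0.08, with 53 of 74 negative, beside -0.0011 and 8859 of 17608 over all genes. The gene that passed was FN1 (ENSG00000115414, chr2:215360440-215436172), fibronectin, on which cells assemble collagen I and V fibrils. FN1 had 387, 395 and 422 CPM on LN-521 alone, and 293, 296 and 289.7 with LN-221, wide apart. The means were 401 ± 18.2 and 293 ± 3.09, with a log2 fold change of -0.45 ± 0.05 and an edgeR adjusted p of 5.08e-05. It passed in all 6 fits that left out a well, and in limma on log2(TPM + 1) the value was -0.42 with an adjusted p of 0.371.

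Collagen folding and modification had 0 of 24 genes past the threshold in edgeR and DESeq2, with 1 higher and 4 lower at an unadjusted p under 0.05 (20.8% in all, beside 14.5% of all genes). Their median log2 fold change was -0.08, with 20 of 24 negative. SERPINH1, the collagen chaperone HSP47, had 238, 281 and 255 CPM on LN-521 alone, and 251, 258 and 261 with LN-221 (-0.01 ± 0.06, edgeR adjusted p 0.974). P4HA1, a prolyl hydroxylase subunit, had 229.5, 216 and 233 CPM on LN-521 alone, and 213, 217 and 212 with LN-221 (-0.08 ± 0.05, adjusted p 0.531). PLOD2, a lysyl hydroxylase, had 107, 75.5 and 90.8 CPM on LN-521 alone, and 81.2, 85.1 and 77.7 with LN-221 (-0.16 ± 0.10, adjusted p 0.542). Its replicate 2 on LN-521 was the lowest well of the 6, and without it PLOD2 passed at -0.28 with an adjusted p of 0.0190. Without replicate 1 of LN-521, its highest well, it was -0.03 (adjusted p 0.842), and the other 4 such fits did not pass. The chaperone and hydroxylases were thus well expressed, at 99.3 (SERPINH1), 69.3 (P4HA1) and 22.6 TPM (PLOD2).

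Procollagen cleavage (9 tested, median 0.00) had 0 calls in edgeR and DESeq2, with 2 higher and 1 lower at an unadjusted p under 0.05 (33.3%, beside the same 14.5%). Fibril assembly partners (18 tested, median -0.01) had FN1 as the 1 call (5.56%, beside 2.53% of all genes), with 1 higher and 4 lower at an unadjusted p under 0.05 (27.8%, beside 14.5%). SPARC, a collagen-binding glycoprotein, was in that list and had 205, 204 and 207 CPM on LN-521 alone, and 193, 184 and 184 with LN-221, without overlap (-0.14 ± 0.05, edgeR adjusted p 0.205). Collagen receptors (10 tested, median -0.08) had 0 calls in edgeR and DESeq2, with 1 higher and 2 lower at an unadjusted p under 0.05 (3 of 10, beside 14.5%). DDR1, a receptor tyrosine kinase for collagen, had 161, 187 and 160.3 CPM on LN-521 alone, and 190.0, 190.0 and 192 with LN-221 (0.17 ± 0.06, adjusted p 0.194). Without replicate 2 of LN-521, DDR1 passed at 0.25 with an adjusted p of 0.00424, and in none of the other 5 such fits (0.13 to 0.17). ITGB1, the integrin subunit common to the collagen and laminin receptors, had 504, 455 and 509 CPM on LN-521 alone, and 459, 450.4 and 439 with LN-221 (-0.12 ± 0.05, adjusted p 0.305). Collagen breakdown (13 tested, median -0.10) had 0 calls in edgeR and DESeq2, with 0 higher and 3 lower at an unadjusted p under 0.05 (23.1%, beside 14.5%). TIMP4 of this list had the largest change of all pathway genes tested (-1.20 ± 0.32, edgeR adjusted p 0.0603), on only 12 to 57 counts per library.

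Genes listed as markers of other cell types were read beside them, and which cells expressed these genes was not measured. In bulk samples, fewer cells of a type and less RNA per cell cannot be told apart. Fibroblast and mesenchyme markers (12 genes, 7 tested) summed to 66.4 to 81.3 TPM on LN-521 alone, and 45.9 to 62.5 with LN-221. In edgeR 1 was lower (THY1, adjusted p 0.0146), which is 14.3% of those tested beside 1.14% of all genes. LUM and FAP were at 0 counts in every library, DCN at 0 to 9, PRRX1 at 0 to 12 and TWIST1 at 1 to 6, so these 5 were at or near 0. PDGFRA and PDGFRB of the same list were detected, at 1.31 and 2.52 TPM on LN-521 alone and 0.940 and 1.76 with LN-221. THY1 (52.3 and 39.5 TPM) and TAGLN (13.9 and 10.3 TPM) made up most of the sum. It therefore follows these 2 genes and not the list as a whole. This fibroblast sum was lower with LN-221, as COL5A2 and COL11A1 were. The neural crest, endothelial and pluripotency sums also had negative log2 differences (-0.25, -0.26 and -0.08). The chondrocyte and neuroectoderm sums had positive ones (0.20 and 0.95). The part of these sums in the changes of COL5A2 and COL11A1 was not tested. Chondrocyte markers (7 of 7 tested, 0 called in edgeR and DESeq2, 2 higher at an unadjusted p under 0.05, which is 28.6% beside 7.05% of all genes) summed to 151.23 to 182.77 TPM on LN-521 alone, and 174.85 to 192.35 with LN-221. CNMD alone gave 155 and 177 of it on average, SOX9 averaged 2.40 and 2.94 TPM, and ACAN, COMP and MATN1 averaged under 1 TPM. Neuroectoderm markers (7 genes, 4 tested) summed to 45.4 to 56.9 and 98.2 to 101.3 TPM. In edgeR 1 was higher (25.0%, beside 1.40% of all genes), OTX2 (45.6 and 79.3 TPM, adjusted p 4.38e-06). OTX2 and LHX5 (5.76 and 19.6 TPM, 3.37-fold, edgeR adjusted p 0.0865) made up nearly all of the sum. DESeq2 and limma on log2(TPM + 1) each called 2 markers of this list, where edgeR called 1. Over all genes DESeq2 called 3.16% and limma on log2(TPM + 1) 33 of 14428. PAX6, SOX1, LHX2, SIX3 and RAX averaged under 1 TPM. The neuroectoderm sum was higher with LN-221, as COL13A1 and the chondrocyte sum were. The part of either sum in the change of COL13A1 was not tested. Neural crest markers (6 genes, 4 tested) summed to 11.2 to 13.3 and 9.31 to 11.7 TPM. In edgeR FOXD3 was lower (adjusted p 1.55e-04), which is 25.0% of those tested beside 1.14% of all genes. Endothelial markers (5 genes, 3 tested) summed to 28.7 to 36.8 and 25.2 to 29.5 TPM. In edgeR KDR was lower (adjusted p 0.00742) and VWF higher (0.0272), which is 66.7% of those tested beside 2.53% of all genes. DESeq2 called 1 of the list, beside 3.16% of all genes. Pluripotency markers, by which the cell label was checked, were all expressed: 8 of 8 were tested, and they summed to 2825 to 3151 TPM on LN-521 alone, and 2725 to 2935 with LN-221. Of these, LIN28A was higher and POU5F1, NANOG and TDGF1 were lower by the edgeR test (4 of 8, beside 2.53% of all genes). DESeq2 also called 4 and limma on log2(TPM + 1) called 0.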

How the data were processed

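Total RNA of 6 wells was sequenced. Per the submitters' processing notes, cutadapt, STAR 2.5.2b, RSEM 1.2.31 and hg38 were used; the annotation and use of strand are not given in the sources used here. The authors deposited expected counts (RSEM's estimated counts, rounded here to whole numbers) and TPM per gene. Counts were tested on all 17608 genes that passed edgeR's expression filter (edgeR 4.0.16 in R 4.3.3, TMM, robust quasi-likelihood, Benjamini-Hochberg, threshold 0.05). SE was the log2 fold change over the root of F. Class sums of TPM are given as values, since the exact test over 20 splits cannot go below 0.1. DESeq2 1.42.0 and limma 3.58.1 (log2 of TPM plus 1 or 0.1, genes of at least 1 TPM in 3 libraries) were alternatives, with other filters, scalings, thresholds, a replicate block and each well left out. Self-tests ran on simulated counts. Symbols matched 93.1% of gene IDs; positions, overlaps and sequences come from GENCODE 29. The members and lists were chosen with earlier results of these data known. Full values are given for members past the threshold, members whose CPM did not overlap, the 10 highest by TPM, the oxidases, pathway genes past the threshold, and SERPINH1, P4HA1, PLOD2, ITGB1, DDR1 and SPARC; every other member past the minimum is named once with its level. Counts per library limit precision for members with few counts, such as COL24A1 and LOXL4.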

Additional observations from a re-analysis of the deposited data

How the results depend on the processing

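The 3 member calls became 5 at a threshold of 0.1, 5 after a GC correction, 0 by limma on log2(TPM + 1) and 0 on log2(TPM + 0.1), and 1 to 5 when a well was left out (5 without LN-521 replicate 1 or 2, 1 without LN-521+LN-221 replicate 2). The 1 pathway call became 2 at 0.1, 4 without a filter, 2 with a minimum of 1 CPM, 0 and 0 by limma, 7 after the GC correction and 1 to 6 without a well (5 without LN-521 replicate 1, 6 without its replicate 2). Beside these, the 446 calls over all 17608 genes became 221 at 0.01, 725 at 0.1 and 861 after the GC correction. They became 718 of 36261 without a filter, 464 of 15457 with a minimum of 1 CPM, and 33 and 16 of 14428 by limma. Without a well they were 194 to 1179. The count was 1179 of 18026 without LN-521 replicate 1, 635 of 17833 without its replicate 2, and 198 of 18036 without LN-521+LN-221 replicate 2. Of calls over all genes, 55.2% were higher, against 81.8% with limma on log2(TPM + 1) and 46.8% without a filter. The GC correction added COL9A2 and COL25A1 to the members called, and among the pathway genes named DDR1 (0.23, adjusted p 0.00120) and ITGB1 (-0.15, adjusted p 0.0353). The GC correction and the ratios in counts were chosen after seeing the data, and the causes of these shifts were not tested.

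Same-numbered wells did not pair: correlations of their deviations were 0.068, -0.032 and -0.018. With the replicate block, 4 members, 3 pathway genes and 646 genes in all passed; COL1A1 was the added member (adjusted p 0.0472).

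Several small log2 values changed sign. COL1A1 was 0.010 in both limma fits, where SERPINH1 was 0.041 and 0.042, and SERPINH1 was 0.033 after the GC correction. With each well left out in turn, COL6A1 ranged from -0.045 to 0.115, COL9A3 from -0.028 to 0.051, LOX from -0.300 to 0.066, LOXL3 from -0.029 to 0.094, LOXL4 from -0.051 to 0.211 and SERPINH1 from -0.062 to 0.061. The fibrillar sum was -0.0045 without abundant small RNAs and ranged from -0.041 to 0.107 without a well, and the filament, network and anchoring sum from -0.067 to 0.018.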
